A study of Homo sapiens with 4 samples.

Results

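FOXC1 occupies many sites that lie neither in genes nor at their start sites, and 2278 such regions near protein-coding genes are described here. To obtain them, the peaks of both replicates of a FOXC1 chromatin immunoprecipitation with sequencing (ChIP-seq) were merged where they overlapped by at least 1 bp. Merged regions with a peak of each replicate on chromosomes 1 to 22 and X were kept. A region's summit was the midpoint of the replicates' summits. Start sites were those of all annotated transcripts, and a protein-coding start site was that of any transcript of a protein-coding gene. Distances to a gene below therefore run to its nearest transcript start, which can lie inside the gene. The 2278 regions had their summit outside every annotated gene body, more than 2 kb from every start site and within 100 kb of a protein-coding one. They made up 17.2% of the 13228 regions shared by both replicates, with a 95% interval of 16.6% to 17.9%. Of the other shared regions, 6380 were intronic, 2653 lay within 2 kb of a start site (promoter regions), 1587 were intergenic beyond 100 kb and 330 were exonic. Membership rests on a peak in each replicate and on position, and no sequence or fold enrichment limit was set.

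The study examined FOXC1 in drug-resistant bladder cancer cells and performed FOXC1 ChIP-seq to map its binding sites. J82, a human bladder cancer cell line cultured in DMEM with 10% FBS, was used for both biological replicates of the ChIP, precipitated with D8A6, an antibody against FOXC1, and for 2 input samples without antibody. No treatment or genetic change separates the samples, and all come from this 1 line. Peaks had been called on each ChIP replicate alone against input, giving 22393 and 41750 peaks on the chromosomes used. Reads over the summit, worked out from the peak values, had a median of 24 in replicate 1 (range 11 to 402) and 44 in replicate 2 (range 12 to 480) over the intergenic regions.

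Forkhead proteins such as FOXC1 bind DNA through a winged helix domain and share a core recognition sequence, written here as ATAAACA or GTAAACA, or else as ATAAATA or GTAAATA, on either strand (the forkhead consensus). FOXC1 is known for its role in the development of the eye, heart and mesenchyme. Many transcription factors act at enhancers, regulatory sequences away from start sites that can raise the transcription of genes over some distance. AP-1, a dimer of FOS and JUN family proteins, binds TGACTCA or TGAGTCA and is a frequent occupant of distal enhancers. Whether a given intergenic region is an enhancer in J82 cells, and which gene it serves, was not measured in the peak lists. The nearest protein-coding gene is used below as a name for each region.

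The summit sequences below were read from GRCh37 (the hg19 build of the peak lists), plus strand, and each covers 50 bp on either side of the summit. The first 3 are among the 5 best-ranked regions, where the rank is the worse of a region's ranks by −log10 p in both replicates. Capitals mark a forkhead consensus, an AP-1 sequence or an extended forkhead element, in which CCAA precedes a looser forkhead-like core. That element had been read in earlier work from the strongest peaks of these same lists.
SMAD7, chr18:46428455-46428555: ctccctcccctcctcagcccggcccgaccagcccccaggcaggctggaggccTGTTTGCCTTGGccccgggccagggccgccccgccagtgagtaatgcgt
GNLY, chr2:85929380-85929480: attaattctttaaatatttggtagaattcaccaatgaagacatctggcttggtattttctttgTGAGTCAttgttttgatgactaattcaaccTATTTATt
CD58, chr1:117052062-117052162: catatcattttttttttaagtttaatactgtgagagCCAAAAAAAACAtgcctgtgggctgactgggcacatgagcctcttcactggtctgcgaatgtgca

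In SMAD7 and CD58 the extended element stood 7.5 and 8.5 bp from the summit, and neither window held the forkhead consensus. GNLY held both an AP-1 sequence, 16 bp from the summit, and a forkhead consensus at the window's edge, 46 bp away. The next sequences were picked with their values in view. They are the best-ranked region with GTAAACA (ARRB2), the best-ranked region in which GTAAACA sits inside the extended element (VKORC1, which also held an AP-1 sequence), and the region upstream of EGFR.
ARRB2, chr17:4624918-4625018: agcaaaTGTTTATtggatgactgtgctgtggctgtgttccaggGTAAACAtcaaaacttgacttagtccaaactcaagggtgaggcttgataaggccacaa
VKORC1, chr16:31111685-31111785: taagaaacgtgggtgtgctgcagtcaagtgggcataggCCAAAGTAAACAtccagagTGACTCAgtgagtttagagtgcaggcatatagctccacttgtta
EGFR, chr7:55063835-55063935: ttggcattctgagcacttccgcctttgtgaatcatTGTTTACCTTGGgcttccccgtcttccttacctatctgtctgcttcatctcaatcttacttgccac
In EGFR the capitals on the printed strand are the reverse complement, with GTAAACA lying inside the extended element.

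The intergenic regions spanned a wide range of enrichment, and replicate 2 was higher at nearly all of them. Fold enrichment, the ChIP pileup at the summit over the local background, had a median of 3.76 in replicate 1 (range 1.77 to 70.3) and 6.83 in replicate 2 (range 1.82 to 87.0). Replicate 2 was higher in 2113 regions (92.8%), against 91.9% of all shared regions. Replicate 2 exceeded replicate 1 by a median factor of 1.7, with an SD of 0.52 on the log2 scale. The log2 ratio of reads had an SD of 0.42, and the SD from counting error alone was 0.37. SDs do not add, so the gap between these values is not the spread left over. The order of the regions was similar in both replicates, with a Spearman correlation of 0.76 across regions, which share both libraries and are not independent. A q-value above 0.05 was given to 243 of the 2278 regions (10.7%) in replicate 1 and to 41 (1.80%) in replicate 2, so the weak end of the set rests on replicate 2.

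**Figure D1:**
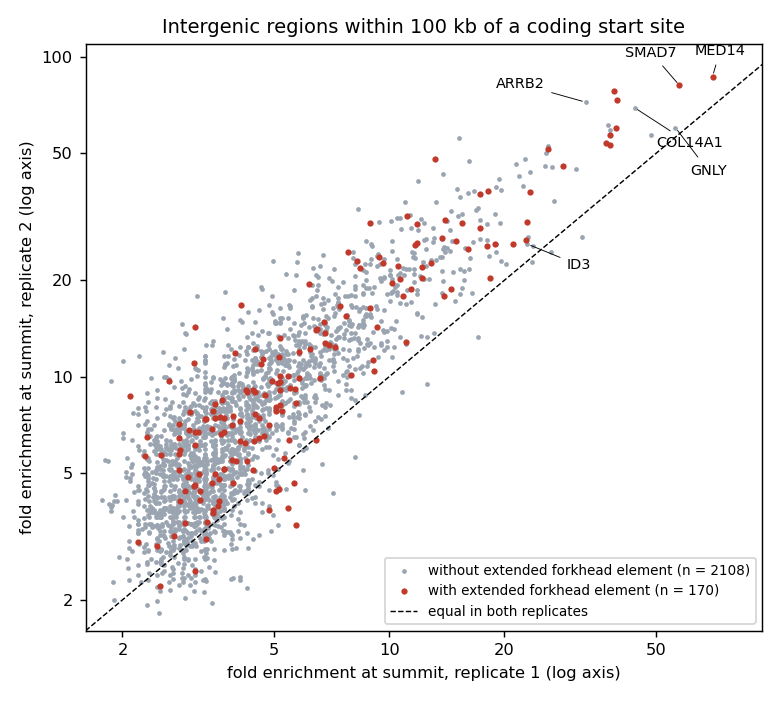
Fold enrichment at the summit in replicate 1 (x axis, log scale) and replicate 2 (y axis, log scale). Each point is 1 of the 2278 intergenic regions, red points hold the extended forkhead element, and the dashed line marks equal values. Most points (2113) lie above the line, and MED14 is the highest at 70.3 and 87.0.

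At the top of the ranking stood 12 regions with a fold enrichment of 32.7 to 70.3 in replicate 1 and 57.1 to 87.0 in replicate 2. The region of MED14, a subunit of the Mediator complex, measured 70.3 and 87.0, with 362 and 480 reads. The SMAD7 region, 28.0 kb downstream of the nearest start site of this inhibitor of TGF-beta signalling (chr18:46427917-46429213), measured 57.6 and 81.6. The GNLY region (chr2:85928814-85929950), 6.94 kb downstream of the nearest start site of a gene for a cytolytic granule protein of lymphocytes, measured 56.2 and 60.2. These 3 were the highest in replicate 1.

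The region of COL14A1, which encodes a fibril-associated collagen, measured 43.9 and 69.5 and ranked just above SMAD7 by −log10 p. CD58, a ligand of the T cell surface protein CD2, had its region 35.1 kb downstream, with 39.5 and 73.6. DPYD, the enzyme that breaks down fluoropyrimidines, had a region 91.9 kb upstream with 48.5 and 57.1. ARRB2, a beta-arrestin, had a region 4.24 kb downstream with 32.7 and 72.3. In all 12 the value was higher in replicate 2. The others were nearest to ZNF133, GPRC5A, SERTAD2, KIF5C and HLX.

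Of these 12 regions, 6 held the extended element, 5 the forkhead consensus and 2 an AP-1 sequence. Over the 2278 regions the shares were 7.46%, 47.8% and 18.5%. The regions of COL14A1 and SERTAD2 held none of the 3. No forkhead consensus, extended element or AP-1 sequence was found within 500 bp of the COL14A1 summit, and the nearest forkhead consensus to the SERTAD2 summit lay 227.0 bp away. A high fold enrichment thus occurred with and without these letters.

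To examine which sequences the summits held, matches within 50 bp were counted and compared with a window of equal length 500 bp away from the same summit. The forkhead consensus was present in 1089 regions, 47.8% (45.7% to 49.9%), against 9.88% of the control windows. It was present at the summit alone in 979 regions and in the control window alone in 115 (exact McNemar test, two-sided, −log10 p of 171). An AP-1 sequence was present in 422 regions, 18.5% (16.9% to 20.2%), against 2.19% of control windows (413 against 41, −log10 p of 77.7). In all shared regions the shares were 48.6% for the forkhead consensus and 16.6% for AP-1. These tests count regions, which are not biological replicates, and neighbouring regions are not independent.

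The 4 forms of the consensus differed in how far they stood above the control windows. GTAAACA was found in 20.5% of the regions and 1.76% of control windows, a ratio of 11.7. For ATAAACA the shares were 16.9% and 2.77%, and for GTAAATA 7.77% and 1.54%. ATAAATA was the least enriched, with 7.11% at the summits and 4.48% in the control windows, a ratio of 1.59. None of the 4 forms passed the test against intronic regions (Fisher's exact test, adjusted p of 0.11 to 0.37).

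The bases around the consensus also differed from those at control matches. The position 2 bases before the match was A in 59.2% of summit matches and 43.1% of control matches. A or T filled the position 3 bases before it in 46.6% and 40.1% of summit matches, respectively, and C or G in 6.15% and 7.07%. In the control windows C and G each filled that position in 17.3% of matches. Within the match, the next to last base was C in 73.3% at summits and 42.7% in control windows.

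Both sequences concentrated at the summit, the forkhead consensus more tightly. Among the 1089 regions with a forkhead match within 50 bp, the nearest match had a median distance of 11.0 bp from the summit. Of these matches, 78.2% lay within 25 bp. Among the 422 regions with an AP-1 match within 50 bp, the median was 21.0 bp, with 60.2% within 25 bp. Larger distances are left out by the 50 bp limit. Over all the intergenic regions, a window of 25 bp held the forkhead consensus in 35.5% and an AP-1 sequence in 9.88%. In bins of 20 bp, forkhead matches reached 19.3 per 100 regions beside the summit, while AP-1 matches stayed between 4.21 and 4.57 per 100 in the bins centred at −10, 10 and 30 bp.

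**Figure D2:**
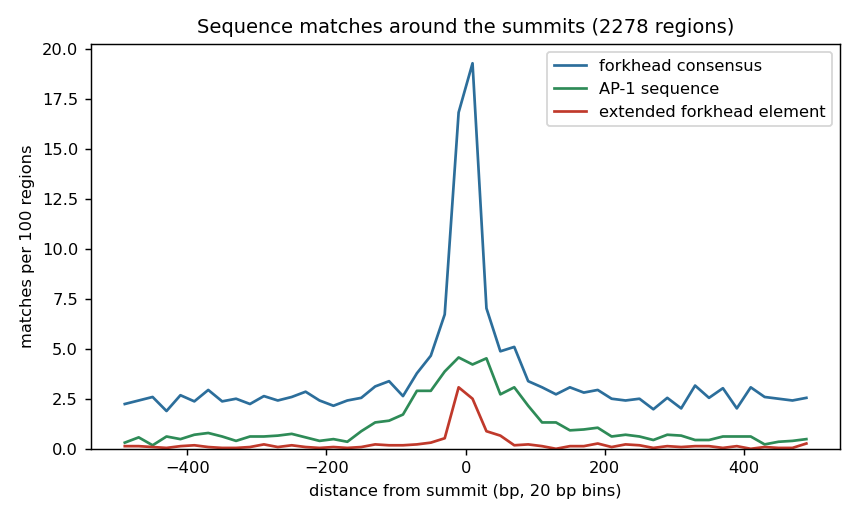
Matches per 100 regions (y axis) by distance from the summit in bp (x axis, 20 bp bins) for the forkhead consensus, the AP-1 sequence and the extended forkhead element over 2278 intergenic regions. The forkhead line peaks at 19.3 at the summit, and the AP-1 line is lower and broader.

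Other recognition sequences were more frequent at the summits than in the control windows, but by less. TEAD sequences (GGAATGC or GGAATGT) were present in 6.76% of regions and 3.20% of control windows, RUNX sequences (TGTGGTC or TGTGGTT) in 7.2% and 3.34%. GATA sequences (AGATAAA or AGATAAG) were present in 6.85% and 3.78%, and the C/EBP sequence TTGCNNAA in 8.78% and 5.49%. Over all shared regions the summit shares were 6.26% for TEAD, 7.67% for RUNX, 7.07% for GATA and 8.51% for C/EBP. The −log10 p of the exact McNemar test was 7.61 for TEAD, 7.99 for RUNX, 5.34 for GATA and 4.83 for C/EBP. ETS sequences (CCGGAAA or CCGGAAG) were found in 14 regions and 14 control windows. The grainyhead palindrome AACCGGTT was found in 0 of 2278 regions, which allows a share of up to 0.162% by the exact interval. Matches on both strands were counted in every case.

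Regions with both a forkhead and an AP-1 sequence were few. Of the 2278 regions, 185 (8.12%) held both, 904 the forkhead consensus alone, 237 AP-1 alone and 952 (41.8%) neither, and over all shared regions 7.33% held both and 42.1% neither. The forkhead consensus was present in 43.8% of regions with AP-1 and 48.7% of those without, a difference of −4.87 percentage points (95% interval −10.1 to 0.413, Fisher's exact test, p = 0.075). The same difference was −5.34 over all shared regions (exact test, p = 5.10e-06) and −3.81 in intronic regions (exact test, p = 0.024). When the extended element was counted too, 856 regions (37.6%) held none of the 3, against 38.3% of all shared regions.

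To compare the intergenic regions with the other classes, the share of regions with each sequence was set against intronic, promoter and remote intergenic regions. The forkhead consensus differed from none of them past the threshold in the shared regions. The difference was −0.580 percentage points from intronic regions (−2.97 to 1.81), −1.50 from promoter regions (−4.29 to 1.30) and −1.72 from regions beyond 100 kb (−4.92 to 1.48), with adjusted p between 0.44 and 0.74 (Fisher's exact test, two-sided). The control windows did differ from those of regions beyond 100 kb, with the consensus in 9.88% and 14.4%. That difference was −4.55 percentage points (−6.71 to −2.46, Fisher's exact test, unadjusted p = 1.91e-05). In the lists of 1 replicate alone the summit difference from intronic regions passed the threshold, at −3.0 without replicate 1 and −3.10 without replicate 2. The summit difference from promoter regions passed without replicate 2 (−3.15, exact test, adjusted p = 0.0062), and that from remote intergenic regions without replicate 1 (−5.57, exact test, adjusted p = 5.84e-09). AP-1 was more frequent than in promoter regions, 18.5% against 12.1%, a difference of 6.46 percentage points (4.45 to 8.49, Fisher's exact test, two-sided, adjusted p = 1.36e-09). In the lists of 1 replicate alone this difference was smaller, at 2.12 percentage points without replicate 2 and 3.87 without replicate 1. The corresponding control windows differed by 0.763 percentage points (Fisher's exact test, p = 0.052). By the same exact test AP-1 did not differ past the threshold from intronic regions (1.44 percentage points, −0.367 to 3.32, adjusted p = 0.32) or from regions beyond 100 kb (−1.39, −3.94 to 1.12, adjusted p = 0.44).

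Promoter regions differed in further sequences. GTAAACA was present in 24.8% of them and 20.5% of the intergenic regions, a difference of −4.26 percentage points (−6.58 to −1.91, Fisher's exact test, adjusted p = 0.0015 over 15 sequences). The SP/KLF sequence GGGCGG was present in 6.33% and 0.966% (exact test, adjusted p = 3.08e-24), and its control windows differed by nearly as much, 6.63% and 1.40%. ETS sequences (1.81% and 0.615%, adjusted p = 0.00079) and the E-box CACGTG (2.04% and 0.878%, adjusted p = 0.0027) were also more frequent in promoter regions by the exact test. Median GC content of the summit windows was 40.6% in the intergenic, 38.6% in the intronic, 43.6% in the promoter and 37.6% in the remote intergenic regions, and its part in these differences was not tested.

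**Figure D3:**
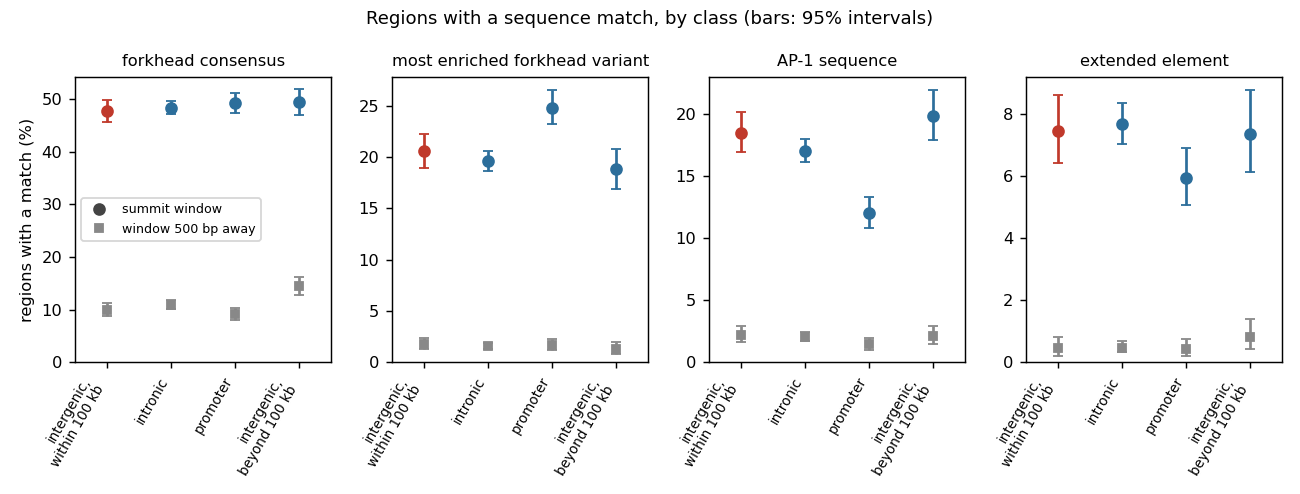
Share of regions with a match in percent (y axis) in 4 classes of shared regions (x axis) for the forkhead consensus, its most enriched variant GTAAACA, the AP-1 sequence and the extended element. Round points are summit windows (red for the 2278 intergenic regions within 100 kb, blue for the others), grey squares are windows 500 bp away, and bars are 95% Clopper-Pearson intervals. AP-1 is at 18.5% in the intergenic and 12.1% in the promoter regions, while the forkhead consensus lies between 47.8% and 49.5% in all 4.

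The strength of the regions was then compared with that of the other classes. A worse rank of 1000 or better, called strong below, was reached by 129 intergenic regions (5.66%), against 6.44% of all shared regions. The difference from intronic regions was −1.33 percentage points (−2.42 to −0.139), which did not pass the threshold after adjustment (p = 0.031, adjusted p = 0.10, Fisher's exact test). By the same exact test it passed with a rank limit of 500 (−1.19, adjusted p = 0.020) and when 1 region per class was kept in each 100 kb (−2.24, adjusted p = 0.011). It also passed in the lists of 1 replicate alone, at −0.512 without replicate 1 and −0.989 without replicate 2 (exact test, adjusted p = 0.026 and 0.025). Those lists include the peaks of the shared regions. They are also longer, so a rank of 1000 takes in a smaller share of each. From promoter regions the difference was −0.104 (−1.40 to 1.21) and from remote intergenic regions −1.14 (−2.75 to 0.389), which passed without replicate 1 (−0.831, exact test, adjusted p = 0.0098). A −log10 q of at least 5 in both replicates was reached by 1145 regions (50.3%), against 50.7% of all shared regions.

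The extended element was rare but concentrated among strong regions. It was present in 170 regions (7.46%), against 7.24% of all shared regions and 0.439% of the control windows. Of the regions that held it, 28 (16.5%, 11.2% to 22.9%) were strong, compared with 4.79% of the rest. Its share was 34.0% in the 50 best-ranked regions, 18.7% at ranks 51 to 200 and 5.48% beyond rank 1000. Because the element was read from the strongest peaks, these shares are a description and no independent evidence. The forkhead consensus was not most frequent at the top, with 50% (35.5% to 64.5%) in the first 50 and 52.7% at ranks 51 to 200. Its share was highest in the 300 regions after rank 200, at 58.7% (52.9% to 64.3%). From there the share fell to 48.6% in the next 500 regions and 44.3% (41.5% to 47.1%) beyond rank 1000. This fall was not tested. Regions with both the forkhead consensus and AP-1 were strong in 9.19% of cases, against 5.35% of the rest, a difference that did not pass the threshold after adjustment (p = 0.044, adjusted p = 0.13, Fisher's exact test).

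Presence in both replicates set these regions apart from peaks at comparable positions in a single list. By the same position rule, 1668 peaks were listed in replicate 1 alone and 5142 in replicate 2 alone. Their median fold enrichment was 2.61 and 3.10. The forkhead consensus was present in 11.7% of the replicate 1 peaks, against 10.0% of their control windows, and in 30.6% of the replicate 2 peaks. The shared regions exceeded them by 36.1 percentage points (33.5 to 38.6, Fisher's exact test, adjusted p = 2.01e-136) and 17.2 (14.7 to 19.6, adjusted p = 7.60e-45). AP-1 was present in 2.04% and 9.90%, below the shared regions by 16.5 and 8.63 percentage points (adjusted p = 1.17e-68 and 1.03e-23, Fisher's exact test). The part of peak strength in these differences was not tested.

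To examine where the regions lay relative to genes, the distance from each summit to the nearest protein-coding start site was measured. The median was 29.3 kb, with quartiles of 12.9 and 55.1 kb. The bins from 2 to 5, 5 to 10, 10 to 20, 20 to 50 and 50 to 100 kb held 179, 250, 401, 790 and 658 regions. Upstream of the start site lay 1463 regions, 64.2% (62.2% to 66.2%). The upstream share was 88.3% at 2 to 5 kb and 56.5% at 50 to 100 kb.

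These numbers were then set against the amount of sequence that satisfies the position rule. On a grid of 200 bp positions, 474 Mb of the genome met the rule, 16.7% of the sequence compared with 17.2% of the shared regions. The density was 4.80 regions per Mb, close to 4.64 in introns and 4.66 over all sequence, while promoters had 6.99 and sequence beyond 100 kb 3.0. Of the open sequence 61.6% lay upstream of the nearest start site, compared with 64.2% of the regions (62.2% to 66.2%). Density was 5.01 regions per Mb upstream and 4.47 downstream, and it varied between 4.64 and 5.44 over the 5 distance bins. By bin and side the highest value was 5.91 per Mb at 2 to 5 kb upstream (158 regions). The lowest value, 3.39 per Mb at 2 to 5 kb downstream, rests on 21 regions. These densities are given without a test.

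**Figure D4:**
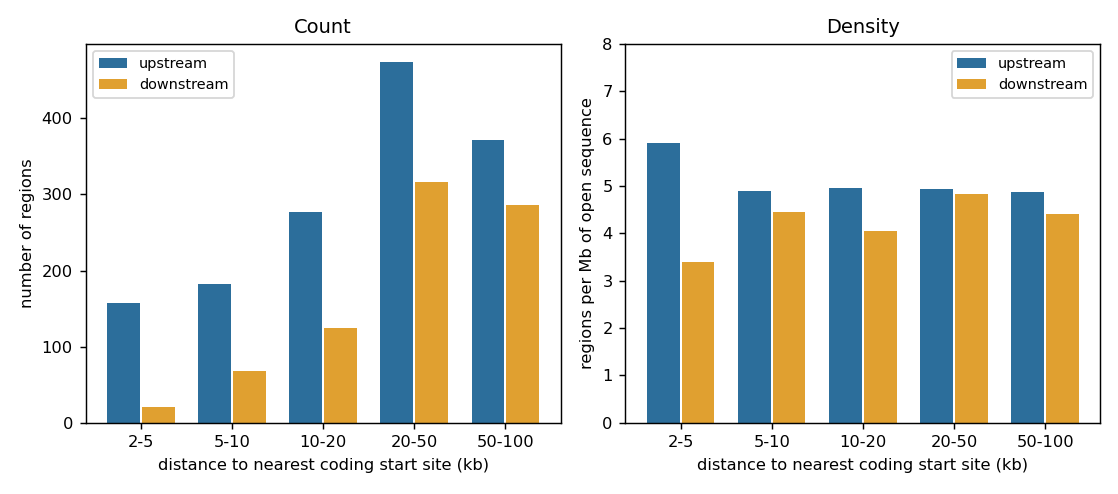
Number of intergenic regions (left) and regions per Mb of sequence open to the position rule (right) by distance to the nearest protein-coding start site in kb, upstream (blue) and downstream (orange). Counts rise to 474 upstream regions at 20 to 50 kb, whereas density stays between 3.39 and 5.91 per Mb.

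No difference with distance passed the threshold in the shared regions. The forkhead consensus was present in 50.3% of the 429 regions within 10 kb and 48.5% of the 658 beyond 50 kb, a difference of 1.87 percentage points (−4.20 to 7.92, Fisher's exact test, adjusted p = 0.74). Without replicate 1 this difference turned to −5.35 and passed the threshold (exact test, adjusted p = 0.0026). Strong regions made up 5.13% and 5.93%, a difference of −0.799 (−3.49 to 2.16, exact test, adjusted p = 0.74). The AP-1 share lay between 18.1% and 19.2% in the 5 bins, and the median fold enrichment between 3.68 and 3.82 in replicate 1. Upstream and downstream regions differed by −1.03 percentage points in the forkhead consensus (−5.30 to 3.24, p = 0.66) and by 1.91 in AP-1 (−1.46 to 5.13, p = 0.29, Fisher's exact test for both).

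The limits of the rule cut through a continuous spread of distances. Just over 2 kb from a start site, and therefore kept, were regions near GPCPD1 (2.01 kb, fold enrichment 3.68 and 5.15) and PEG10 (3.82 and 5.44). Just within 2 kb, and therefore left out as promoter regions, were those near FASLG (4.13 and 18.7) and EEPD1 (5.64 and 6.29). The farthest regions kept were near TMTC3 (99.9 kb, 3.42 and 6.31) and RAPGEF1 (99.8 kb, 2.21 and 11.6). The first left out as too far were near S1PR1 (100.1 kb, 3.29 and 4.54) and HS3ST1 (100.2 kb, 2.66 and 6.50).

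Chromosome 20 carried the highest density, 7.91 regions per Mb of open sequence, and chromosome X the lowest, 1.38. The local background, in reads expected over the summit in replicate 1, had a median of 8.09 on chromosome 20, the highest, 4.16 on X, the lowest together with chromosomes 21 and 22, and 5.28 over all regions. The order was not kept on every chromosome, with 5.91 reads and 3.49 regions per Mb on chromosome 11, 4.91 and 6.15 on chromosome 17, and 4.16 and 4.16 on chromosome 22. The part of background or copy number in these densities was not tested. Median fold enrichment was 3.55 on chromosome 20 and 4.50 on X.

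Some regions occurred in groups. Another shared region of any class lay within 10 kb of 508 intergenic regions (22.3%, 20.6% to 24.1%), and the share did not differ past the threshold from intronic (23.6%), promoter (22.9%) or remote intergenic regions (20.7%), with adjusted p between 0.35 and 0.63 (Fisher's exact test). Chains of intergenic regions within 10 kb of each other numbered 195 and held 420 regions, at most 4 in a chain. Near VMP1, which encodes a membrane protein needed for autophagy, 4 regions lay 6.09 to 17.9 kb downstream of its nearest start site. The outermost (chr17:57932919-57933429) measured 10.1 in replicate 1 and 21.5 in replicate 2, and the other 3 lay between 3.68 and 4.25 in replicate 1. The strongest was also the farthest from the start site.

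The 2278 regions had 1733 nearest protein-coding genes, 8.63% of the 20090 annotated. For 1349 genes there was 1 region, for 266 genes 2, for 84 genes 3, for 26 genes 4, for 7 genes 5 and for 1 gene 6. CDC42EP3, an effector of the small GTPase CDC42, had the most, with 6 regions 26.5 to 64.8 kb upstream. The 2 farthest, at chr2:38030017-38030783 and chr2:38013599-38014540, were also the strongest, with 14.2 and 16.1 in replicate 1 and 30.6 and 25.1 in replicate 2. The other 4 CDC42EP3 regions lay between 2.68 and 3.82 in replicate 1 and between 3.29 and 8.58 in replicate 2. Of the 6, 4 held the forkhead consensus and 1 an AP-1 sequence, against 47.8% and 18.5% of the 2278 regions.

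The genes with 5 regions each included PPP1R3C, a glycogen-targeting subunit of protein phosphatase 1, and KYNU, an enzyme of tryptophan breakdown. All 5 KYNU regions lay upstream, the nearest at 3.05 kb (8.29 and 13.0), and all 5 PPP1R3C regions lay downstream, the best-ranked at 16 kb (14.9 and 17.3). The TPBG gene, for a surface glycoprotein of trophoblast and tumour cells, had 4 regions, and all 4 held the forkhead consensus. Over the 2278 regions that share was 47.8%. The best-ranked TPBG region (chr6:83040788-83041601) measured 31.9 in replicate 1 and 27.3 in replicate 2, against the common direction, and the next 15.1 and 38.6.

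Regions near genes of 11 lists were then counted. The lists were drawn up with earlier results of these data known, and shares are given without a test. Their genes had more open sequence around them than the median coding gene (8.20 kb), with list medians from 12.6 to 75.7 kb, so the density of regions in that sequence is given for each list. Of the 20090 coding genes, 14398 had any open sequence on the grid, and the share of 8.63% used below is over all 20090. Genes of TGF-beta, BMP and ID signalling had a region in 10 of 19 cases, against 8.63% of all coding genes. Their 16 regions gave 13.6 per Mb, against 4.80 for all coding genes. Epithelial transcription factors had a region in 10 of 16, with 13 regions at 12.4 per Mb. Hippo pathway genes had one in 5 of 16, with 9 regions at 19.5 per Mb. AP-1 and immediate early genes had 1 region, in 1 of 15 genes (MAFK), at 2.74 per Mb. G1 cell cycle genes had 2 regions, in 2 of 16 genes, at 4.38 per Mb. The density was 13.8 per Mb for matrix and adhesion genes (11 regions) and 11.9 for forkhead genes (13 regions). It was 9.72 for factors of epithelial-mesenchymal transition (5 regions) and 9.19 for inflammatory genes (8 regions). For drug transport and cisplatin response genes it was 8.40 (3 regions) and for receptor kinases and growth factors 6.08 (8 regions). Each density thus rests on few regions, from 1 to 16 per list.

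In the TGF-beta, BMP and ID list, SMAD7 was followed by ID3, an inhibitor of bHLH transcription factors. The ID3 region, 2.94 kb upstream at chr1:23888576-23889392, measured 23 and 26.0, with 146 and 229 reads, and was the only region of this class nearest to ID3. It is not the FOXC1-bound enhancer that the paper describes for ID3, which lies more than 100 kb upstream of the gene. The summit window of the region at 2.94 kb is shown because it held no match to the 3 sequences, nor did any base within 500 bp of it.
ID3, chr1:23888884-23888984: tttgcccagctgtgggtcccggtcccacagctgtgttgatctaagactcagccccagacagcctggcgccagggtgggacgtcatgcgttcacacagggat
TGFBR2, the type II receptor of TGF-beta, had 3 regions. The region 28.0 kb upstream measured 8.67 and 19.0, the region 40.0 kb downstream 10.1 and 14.2, and the third 4.07 and 2.30. BMP4 had 4 regions, 3 of them with an AP-1 sequence, at 5.50 and 14.1, 5.37 and 10.9, 6.29 and 19.4, and 2.09 and 8.72. An AP-1 sequence was present in 18.5% of the 2278 regions. ID1 had 2 regions and ID4 had 1, all weaker than that of ID3.

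The list of forkhead genes, which does not cover the whole family, had regions at 6 of 21 genes, against 8.63% of all coding genes. There were 13 regions in all, of which 9 held the forkhead consensus and 0 an AP-1 sequence. Over the 2278 regions the shares were 47.8% and 18.5%. FOXQ1, FOXF2 and FOXC1 are neighbours on chromosome 6, and 8 of the 13 regions were nearest to them. FOXC1 had 2 regions upstream, at 11.8 kb (chr6:1598046-1598827, 5.70 and 8.93) and 2.26 kb (chr6:1607604-1608165, 3.46 and 5.14), and both held the forkhead consensus. FOXF2 had 4 regions, the best-ranked 7.5 kb downstream with 6.43 and 20.8, and FOXQ1 had 2, the better-ranked 44.6 kb upstream with 8.0 and 14.6. Replicate 2 was higher at all 8. Other forkhead genes, named after their values were seen, also had regions, among them FOXB1 with 10.1 and 20.7 and FOXL2 with 10.3 and 12.4 at their best-ranked ones.

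Among epithelial transcription factors, KLF5 had its region 63.8 kb downstream (11.4 and 18.9), with the forkhead consensus and the extended element. KLF4, also a zinc finger factor of differentiating epithelia, measured 5.74 and 22.8, and GRHL2, a grainyhead factor, 6.36 and 8.61. Regions near TP63, GATA3, PPARG, ELF3 and EHF were weaker, between 2.57 and 4.24 in replicate 1. In the Hippo list, VGLL3, a TEAD cofactor, had a region 86.0 kb upstream with 10.2 and 18.5 that held both a forkhead consensus and an AP-1 sequence. CCN1, a matricellular protein induced by YAP and TEAD, had 4 of the 9 regions of the Hippo list, the best-ranked at 7.40 and 16.2.

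By rank, the receptor kinase and growth factor list was led by EGFR and FGF5. The EGFR region at 22.8 kb upstream (chr7:55063549-55064169) measured 14.5 and 18.7, and another at 57.6 kb upstream 2.52 and 4.39. FGF5 measured 14.7 and 21.2. Factors of epithelial-mesenchymal transition had regions at 3 of 12 genes, namely ZEB2 (4.95 and 23), SNAI2 (7.70 and 9.05) and SNAI1 (2.57 and 5.28). ZEB2 showed the widest gap between replicates of these, at 4.65-fold. Matrix and adhesion genes had regions at 7 of 25, with that of FN1 ranked best (4.80 and 6.53). Inflammatory genes had regions at 7 of 18, with that of IL24 ranked best (5.32 and 8.26). Over all coding genes the share with a region was 8.63%.

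Drug transport and cisplatin response genes had regions at 2 of 17 genes (11.8%, against 8.63% of all coding genes), at 8.40 per Mb against 4.80. The median fold enrichment of the 2278 regions was 3.76 and 6.83. ABCC4, an efflux transporter, had regions upstream at 18.3 kb (4.21 and 7.18), above both medians, and at 51.2 kb (3.11 and 2.95), below both. ABCC1, another, had a region 2.66 kb upstream with 2.33 and 4.58, where the −log10 q in replicate 1 was 0.751. None of the 2278 regions was nearest to ABCB1, E2F3, MYC, NR4A3, MMP10, PITHD1, FUCA1 or IFNLR1. Peaks inside gene bodies or at start sites are outside this class by its rule, so this says nothing of sites within those genes.

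**Figure D5:**
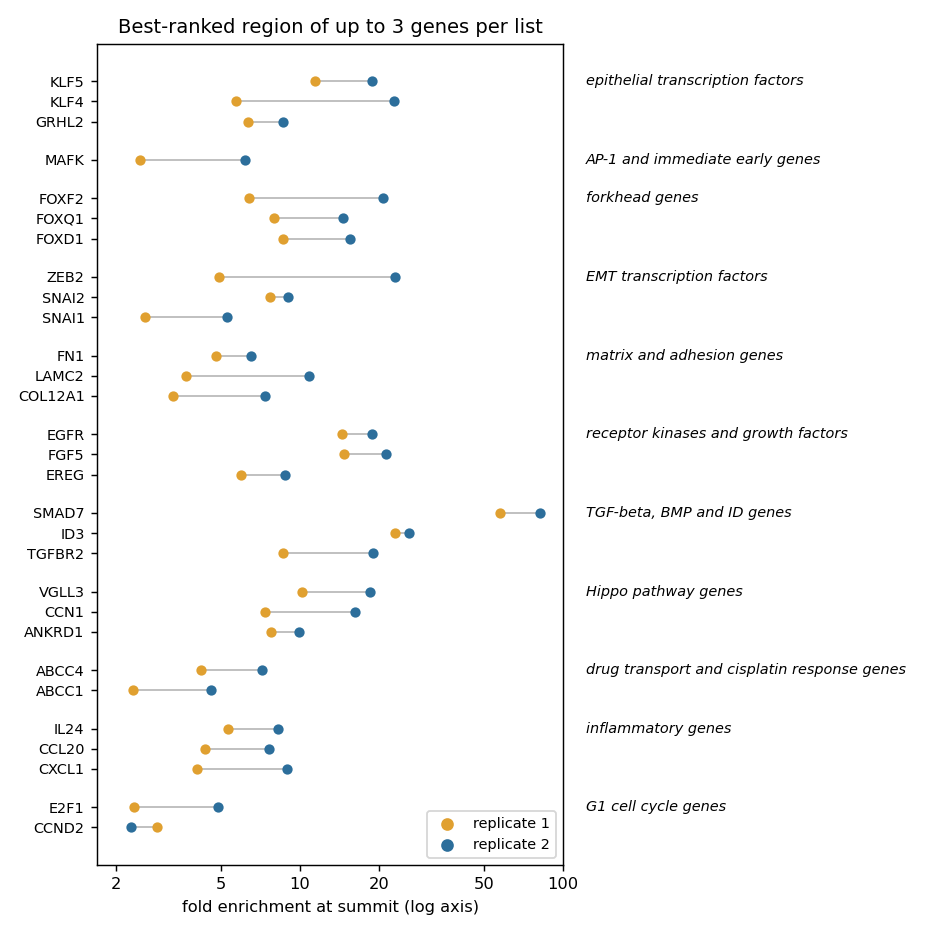
Fold enrichment at the summit (x axis, log scale) in replicate 1 (orange) and replicate 2 (blue) of the best-ranked region of up to 3 genes in each of 11 lists. SMAD7 leads at 57.6 and 81.6, and CCND2 is the gene shown with the lower value in replicate 2.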

How the data were processed

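The study made 2 FOXC1 ChIP replicates and 2 inputs from J82 cells, and only the peak list of each ChIP replicate was analysed here. Per the study's methods and the submitters' processing notes, 75-bp single-end reads were mapped to hg19 by BWA and each replicate's peaks were called against input by MACS2 2.2.7.1. The deposited lists carry no stated filter. For its own set the paper called reproducible peaks with the IDR tool, whereas the regions here needed only an overlap of at least 1 bp. The fold enrichment deposited by the authors is a ratio of pileup to local background at the summit, the −log10 p and −log10 q deposited by the authors test it, and the deposited score is the −log10 p times 10, cut to a whole number. Entries outside chromosomes 1 to 22 and X (54 and 82) were left out.

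Regions were classified with GENCODE version 44 on GRCh37. Whole reads over each summit were solved from fold enrichment and −log10 p (residual under 0.001), which succeeded for 100% of shared regions. Read totals were not used. Sequence shares were compared by exact McNemar and two-sided Fisher's exact tests with Newcombe intervals, adjusted by Benjamini-Hochberg over the 13 main tests, or over 15 sequences per comparison. The forms of the consensus, the sequence classes, the neighbours and the peaks of a single list were each adjusted within their own family. Shares have Clopper-Pearson intervals at 95%, and intervals cover counting error only. Open sequence was measured on a 200 bp grid that skipped unresolved bases. Scripts used Python 3.11.15, SciPy 1.17.1 and pysam 0.24.0 and were tested on simulated data.

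The members, sequences and gene lists were chosen with earlier results of these data known. Regions named were the 12 of best worse rank, the best of the 10 genes with most regions, up to 3 genes per list, regions of genes the study names, and those at each distance limit. VMP1, VKORC1, other regions of these genes and further list genes were named after their values were seen. Alternatives were other overlap, rank, window, annotation, distance and q limits, single replicates and thinned regions. The summit sequence of 1 named region is not reported here.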

Additional observations from a re-analysis of the deposited data

How the results depend on the processing

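Over 17 results and 15 settings, 141 of 175 alternative values had the direction and call of the value reported or, with no test, moved by less than the spread. The forkhead and AP-1 excess over control windows and the AP-1 excess over promoter regions did so under every alternative run. Where not stated below, the cause was not tested. A −log10 q of at least 5 left 1145 regions and 984 nearest genes, and moved the forkhead difference from intronic regions to 0.806 and that between near and far regions to −1.65. A window of 25 bp gave forkhead differences of 1.19 from intronic, 0.874 from promoter and 1.74 from remote intergenic regions. GTAAACA alone gave 0.936, −4.26 (exact test, adjusted p = 0.0013) and 1.77, and a window of 100 bp gave −0.134 between near and far regions. The strong-site difference from intronic regions passed the threshold with a rank of 500 (−1.19) and with 1 region per class and 100 kb (−2.24), a setting added after the data were seen. That from promoter regions became 0.298 with such thinning and 0.109 with protein-coding and lncRNA genes only. The strong-site difference between near and far regions became 0.498 when ranked by fold enrichment and 0.0733 with protein-coding transcripts only, also added later. The upstream share was 67.3% with an outer limit of 50 kb and 70.0% with protein-coding transcripts only.

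Using the peaks of 1 replicate alone, without the requirement of sharing, gave 3966 to 7426 regions and 2702 to 4088 genes. Forkhead differences then were −3.10 to −3.0 from intronic, −3.15 to −0.233 from promoter and −5.57 to −2.51 from remote intergenic regions, and −5.35 to −1.65 between near and far regions. The AP-1 difference from intronic regions was −0.635 to 0.288. Strong-site differences were −0.989 to −0.512 from intronic, −0.450 to 0.107 from promoter and −0.831 to −0.457 from remote intergenic regions.

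No paired analysis was possible because the inputs have no files here and the ChIP replicates are a single group. The planned repeat comparison was not run because the genome sequence given carries no repeat masking. Reads of 11 to 480 over a summit limit the precision of each fold enrichment.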

Other observations

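Chains of 4 neighbouring regions were also found near other genes, picked with their values in view. PTPN1, a tyrosine phosphatase of insulin and leptin signalling, had 4 regions 75.4 to 88.5 kb upstream on chromosome 20. The best-ranked of them (chr20:49051145-49052165) measured 10.2 and 18.4 (fold enrichment in replicates 1 and 2), with 192 and 278 reads, and the other PTPN1 regions lay between 2.50 and 3.01 in replicate 1. CYP24A1, the enzyme that inactivates vitamin D, had 4 regions 8.25 to 33.4 kb downstream, all of moderate strength, between 2.72 and 4.55 in replicate 1 and between 6.42 and 7.34 in replicate 2. Replicate 2 was higher at all 4 CYP24A1 regions and at 3 of the 4 PTPN1 regions. The local background was high on chromosome 20, at a median of 8.09 expected reads in replicate 1 against 5.28 over all regions, and its part in these chains was not tested.

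ADTRP, a membrane hydrolase of fatty acid esters, had 4 regions, of which the best-ranked (chr6:11700232-11701070) lay 28.2 kb downstream with 13.8 and 27.0 and held GTAAACA. The other ADTRP regions measured 4.85 and 10.6, 4.30 and 6.86, and 2.23 and 2.27.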
